A study of Homo sapiens with 60 samples.

Results

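The 24 libraries described here came from SW1783 cells treated for 24 h with one of 4 multi-herb formulas, Sagunja-tang, Samul-tang, Palmul-tang or Sibjeondaebo-tang, at a medium dose of 100 µg/mL or a low dose of 20 µg/mL. They were chosen by their treatment labels, 3 libraries per formula and dose, from 60 libraries in the series. SW1783 is an established human astrocytoma line, and each formula was given as an ethanol extract. The series also holds the same formulas at 500 µg/mL (12 libraries, the high dose) and cells given DMSO as vehicle (3 libraries), which are used below for comparison. The vehicle libraries carry a different label code from the formulas, so treatment and label code cannot be told apart there. Vehicle against dose was not tested, and vehicle values are a description. By tradition Sagunja-tang plus Samul-tang gives Palmul-tang, to which more herbs are added for Sibjeondaebo-tang. The comparison asks what the step from 20 to 100 µg/mL did to the transcriptome, with the formula as a block, so that 12 medium libraries were set against 12 low ones. The labels do not say whether replicates came from separate cultures, so the p-values measure the spread between these libraries, which may be technical.

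HMOX1, SLC7A11 and ID3 served as markers of response. HMOX1 encodes heme oxygenase 1, which breaks down heme, and SLC7A11 the cystine importer that feeds glutathione synthesis. Both are targets of NRF2, a transcription factor that KEAP1 keeps at low levels until electrophiles or oxidants modify KEAP1, after which NRF2 binds antioxidant response elements near detoxification genes. ID3 encodes an inhibitor of basic helix-loop-helix transcription factors, and the ID genes are classic targets of bone morphogenetic protein (BMP) signalling through SMAD proteins. In glial cells the former pathway is known for protection against oxidative stress and the latter for control of differentiation.

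The 24 libraries held 19793387 to 33257876 expected counts each, and 5.62% to 7.18% of these fell on mitochondrially encoded genes. In the vehicle libraries that share was higher, at 8.04%, 7.55% and 7.95%. Of the astrocyte markers, VIM, CD44 and GJA1 were expressed (4300, 2670 and 245 CPM, the counts scaled to library size), while GFAP, AQP4, ALDH1L1, SOX2 and FABP7 were under 0.1 CPM. The myeloid markers AIF1, CX3CR1, P2RY12 and TYROBP, the endothelial markers CDH5, CLDN5 and VWF, and the epithelial markers CDH1, EPCAM, ESRP1 and KRT5 were also under 0.1 CPM. Other members of these lists were expressed, with means of 160 CPM for CD68, 10.2 for PTPRC and 2.94 for CSF1R (myeloid), 33.4 for KDR (endothelial), and 158 for KRT18 and 17.4 for KRT8 (epithelial). Of the neuron markers, SYT1, SNAP25 and NEFL had means of 36.9, 22.8 and 6 CPM. The rest were at 0.938 CPM (GAD1) or lower. The summed level of each list of 8 markers overlapped between low and medium dose, with 152 to 187 and 155 to 194 CPM for myeloid, 34.3 to 38.7 and 33.4 to 38.9 CPM for endothelial, 164 to 203 and 149 to 189 CPM for epithelial, and 63.2 to 70.5 and 63.7 to 69.9 CPM for neuron markers. In bulk RNA, fewer cells of a kind and less RNA per cell cannot be told apart.

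One library went against its label. On 77 genes called between the doses in the other 3 formulas, the library labelled Palmul-tang low replicate 2 had a mean signed deviation of 0.03 (log2), against -0.06 and -0.07 for the other Palmul-tang low libraries and 0.03, 0.04 and 0.05 for the Palmul-tang medium ones. It was nearer to its own dose on 37.7% of these genes, while the other 23 libraries were nearer to theirs on 49.0% to 84.0% of the genes used for them. Among all 276 pairs of the 24 libraries, the smallest difference in counts was that between it and Palmul-tang medium replicate 2, with a chi-square per degree of freedom of 2.24. The 24 pairs within a group ranged from 2.33 to 5.03, with a median of 3.35. Pairs of other groups and doses were also close, such as Samul-tang low replicate 3 with Palmul-tang medium replicate 1 at 2.6. Palmul-tang low replicate 3 was nearer to medium replicate 2 (2.91) than to low replicate 1 (3.05). This measure alone thus does not tell the doses apart. Palmul-tang low replicate 2 is called the doubtful library below, it keeps its label, and results that rest on it are given with and without it. It was picked out by its values on genes that differed between doses. Fits without it thus lean toward a difference, and their counts and p-values are a description.

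**Figure D1:**
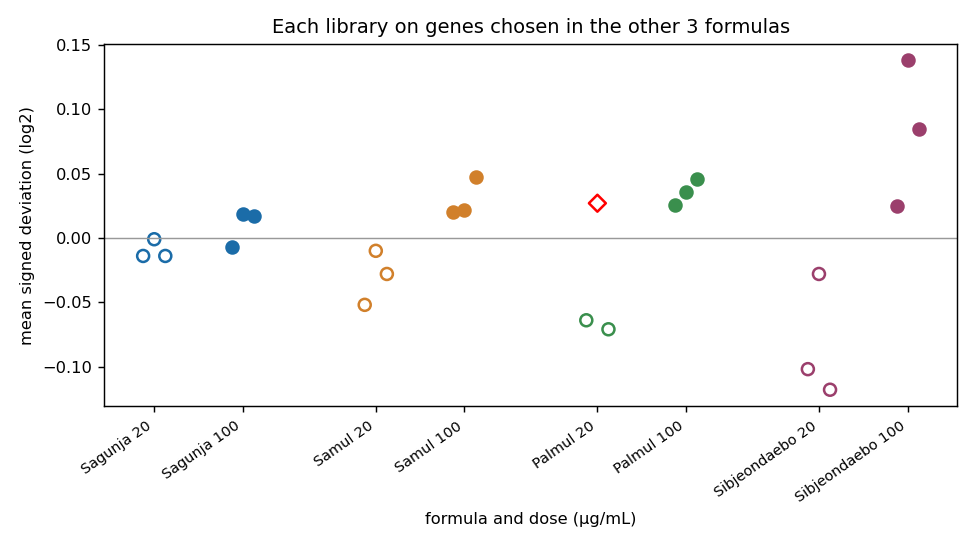
The vertical axis gives, for each library, the mean deviation from the mean of its formula over genes chosen in the other 3 formulas (log2, signed so that a positive value lies toward the medium dose), and the horizontal axis gives formula and dose. Open symbols are low-dose and filled symbols medium-dose libraries, the genes were those called without that formula or, for Sibjeondaebo-tang, the 50 with the smallest p, and the red diamond at 0.03, the library labelled Palmul-tang low replicate 2, lies among the medium libraries.

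Of 17087 genes tested, 124 (0.726%) differed between medium and low dose over the 4 formulas at an adjusted p below 0.05 (edgeR quasi-likelihood test with Benjamini-Hochberg adjustment). At the medium dose 56 genes (0.328%) were higher and 68 (0.398%) lower, and 2223 genes had an unadjusted p below 0.05. Most differences were small: their median size over the 124 genes was 0.13 on the log2 scale, and 9 genes reached a fold of 1.2. The largest fall was -5 (log2), and 3 of the 124 genes had a mean under 5 CPM. By formula, the median size over the 124 genes was 0.09 in Sagunja-tang, 0.10 in Samul-tang and Palmul-tang, and 0.21 in Sibjeondaebo-tang. Of the 124, 94 were also called within Sibjeondaebo-tang. The same sign in all 4 formulas was found for 54 of the 56 higher and 58 of the 68 lower genes, and for 16.6% of all genes tested. The calls rest on the same libraries, so this is a description. In 4 genes, 0.0234% of those tested, the 3 medium libraries were apart from the 3 low ones in every formula. These were HMOX1, PMF1, SLIT2 and PDZRN3.

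Without the doubtful library 172 genes were called, 75 higher and 97 lower, and 121 of the 124 were among them. Without Sibjeondaebo-tang 3 genes were called, HMOX1 (log2 0.32, adjusted p = 0.00103), NQO1 (0.20, adjusted p = 0.00135) and FILIP1L (-0.21, adjusted p = 0.0134), by edgeR. The formulas carry 2 label codes, and within them 2 genes were called for Sagunja-tang with Samul-tang (HMOX1 and NQO1) and 67 for Palmul-tang with Sibjeondaebo-tang. Leaving out single libraries of Sibjeondaebo-tang gave 67 to 78 calls, and leaving out Palmul-tang low replicate 1 gave 82. The changes moved with transcript length: across 11178 genes the log2 change had a rank correlation of -0.421 with it, and the median transcript was 5537 bases for the lower genes, 2911 for the higher ones and 2988 for all. With trends in length and GC content removed, 118 genes were called, 72 higher and 46 lower, and 96 of them were among the 124.

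HMOX1 (chromosome 22, 35380361 to 35394214 on GRCh38, plus strand) had the largest of the named rises. In Sagunja-tang it measured 61.9, 65.6 and 61.3 CPM at the low dose and 78.5, 75.7 and 77.6 CPM at the medium dose. In Samul-tang the values were 59.9, 62.7 and 69.1 CPM, then 82.0, 76.6 and 83.0 CPM. In Palmul-tang they were 69.0, 91.4 and 68.1 CPM, then 94.1, 94.9 and 99.4 CPM. In each of these formulas all 3 medium libraries lay above all 3 low ones, and the 91.4 of Palmul-tang is the doubtful library. In Sibjeondaebo-tang HMOX1 went from 70.2, 71.7 and 66.6 CPM to 120.1, 124.4 and 121.0 CPM, also without overlap. Over the 4 formulas the log2 difference was 0.45 ± 0.05 (SE, 12 against 12 libraries), a 1.36-fold rise with an adjusted p of 1.42e-05, and 0.48 with an adjusted p of 1.38e-07 without the doubtful library. The vehicle libraries measured 86.6, 84.0 and 83.2 CPM, above every low-dose library but the doubtful one and above the medium libraries of Sagunja-tang and Samul-tang.

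NQO1, a quinone reductase and a standard readout of NRF2, was the gene with the smallest adjusted p. It lies on chromosome 16 (69706996 to 69726951, minus strand). Its level in Sagunja-tang went from 152, 147 and 137 CPM to 174, 176 and 170 CPM, and in Samul-tang from 154, 152 and 151 CPM to 171, 178 and 171 CPM. In Palmul-tang it went from 147, 170 and 144 CPM to 172, 173 and 169 CPM, and in Sibjeondaebo-tang from 150.2, 148.4 and 145.1 CPM to 192, 196 and 191 CPM. The doses were apart in 3 formulas, and in Palmul-tang the doubtful library alone reached the medium ones. The log2 difference over the 4 formulas was 0.24 ± 0.03 (adjusted p = 6.96e-06). All 3 vehicle libraries, at 129, 128 and 127 CPM, were below every low-dose library.

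SLC7A11 (chromosome 4, 138164097 to 138242349, minus strand) rose less. Its low-dose libraries ranged from 108.4 to 127.7 CPM with a median of 113.9, and its medium-dose libraries from 114.9 to 143.9 CPM with a median of 128.1. The ranges overlapped, and within formulas the doses were apart in Samul-tang (114.1, 113.7 and 126.2 CPM against 135.8, 143.9 and 141.1 CPM) and Sibjeondaebo-tang (116.5, 110.3 and 117.6 CPM against 126.4, 135.5 and 123.6 CPM). The log2 difference was 0.15 ± 0.03 (adjusted p = 0.00444), with 0.05 in Sagunja-tang, 0.25 in Samul-tang, 0.14 in Palmul-tang and 0.16 in Sibjeondaebo-tang. Vehicle libraries measured 104.7, 101.7 and 101.0 CPM. A difference between the formulas was not called for SLC7A11 (adjusted p = 0.465).

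**Figure D2:**
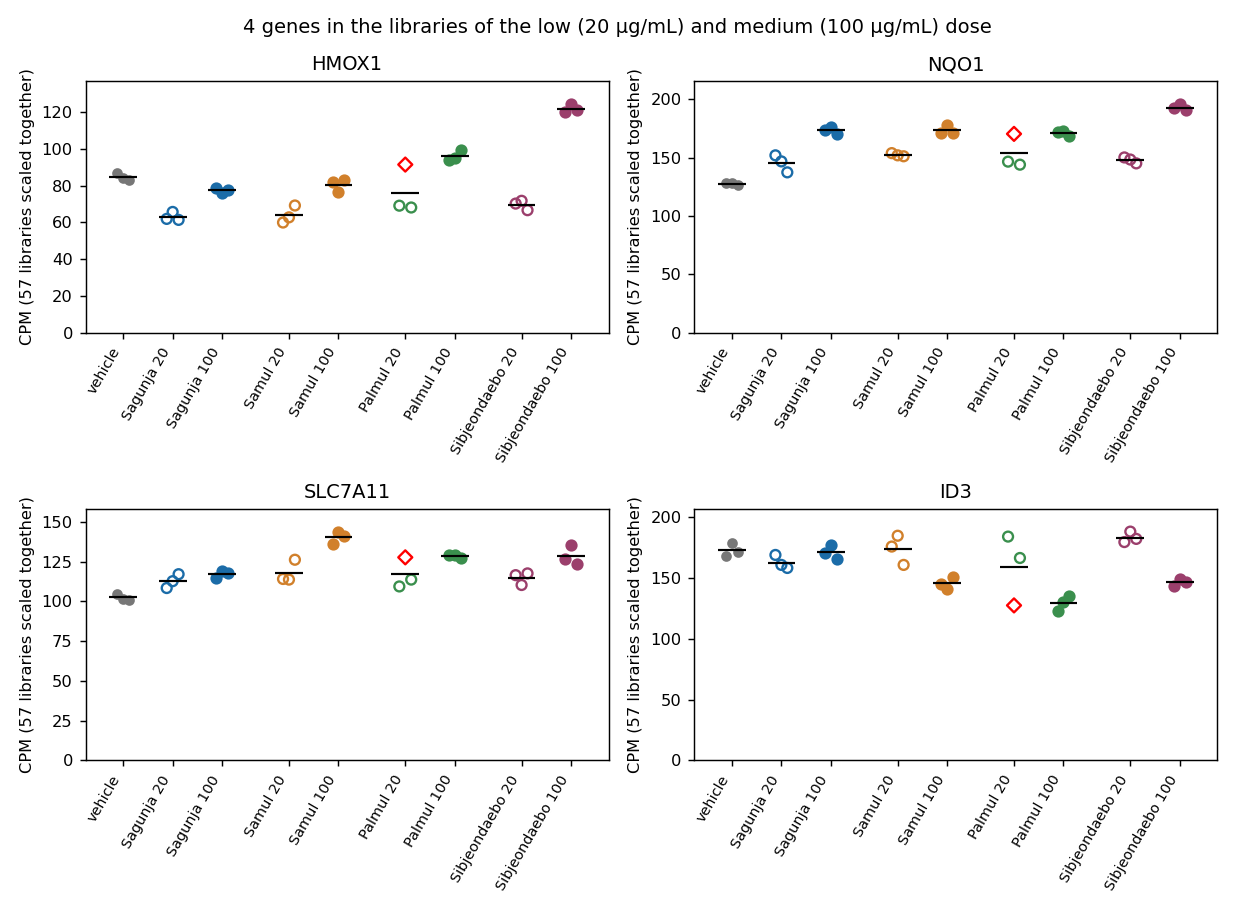
The panels show HMOX1, NQO1, SLC7A11 and ID3, with CPM on the vertical axis and vehicle, then each formula at 20 (open) and 100 µg/mL (filled), on the horizontal axis. Each point is a library, the line is the mean of 3, and the red diamond is the library labelled Palmul-tang low replicate 2. HMOX1 medium libraries lie above the low ones within each formula, and the ID3 medium libraries of Samul-tang and Sibjeondaebo-tang lie below the low ones.

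Of the 25 NRF2 target genes on a list of antioxidant and detoxification genes, all measured, 9 rose and 0 fell (edgeR), where 0.328% of all genes were higher. All 25 had a positive log2 difference, with a median of 0.09, while 51% of all genes tested were positive with a median of 0.001. Besides HMOX1, NQO1 and SLC7A11, the ferritin light and heavy chain genes FTL and FTH1, which store iron, rose by 0.23 ± 0.04 and 0.19 ± 0.04 (log2). Both have processed copies in the genome that can share reads. FTL ranged from 863.1 to 1308 CPM at the low dose with a median of 1152, and from 1159 to 1716 CPM at the medium dose with a median of 1294. The other members that rose make or recycle reduced thiols and NADPH: SRXN1 (sulfiredoxin) by 0.14, GCLM (the modifier subunit of glutamate-cysteine ligase) by 0.12, TXNRD1 (thioredoxin reductase) by 0.09 and TKT (transketolase) by 0.08. For SRXN1, 10 of 12 medium libraries lay above all 12 low ones, at 104.0 to 116.9 CPM against 92.2 to 105.5 CPM. Without the doubtful library 12 members rose, with length and GC trends removed 11 did, and without Sibjeondaebo-tang 2 did, with all 25 still positive.

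Of 8 regulators of the pathway 1 rose, SQSTM1 (0.16 ± 0.03, adjusted p = 0.00209), where 0.328% of all genes were higher. Over the 8 regulators the median was 0.005 and 5 were positive, near the 51% and 0.001 of all genes tested. SQSTM1 encodes p62, an autophagy receptor that binds KEAP1 and is itself an NRF2 target. NFE2L2, the gene of NRF2, averaged 71.8 CPM at the low dose and 71.7 CPM at the medium dose. KEAP1 averaged 47.4 and 48.7 CPM (0.03, adjusted p = 0.599).

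Promoter sequences from RefSeq (GRCh38.p14, 250 bases before to 50 after the start) were searched for the core of the antioxidant response element, TGACNNNGC, on both strands. These letters were in 26.3% of the 38 promoters found for the 56 higher genes, in 9.8% of the 51 found for the 68 lower genes, in 15.1% of the 11845 promoters of tested genes and in 13.6% of all 27305. A match is a description of letters, not a shown binding site. The promoters of GCLM, TXNRD1 and SLC3A2 are shown because these genes rose and hold a match (in capitals), and that of NQO1 because it had the smallest adjusted p. NQO1 holds no match in this window, TXNRD1 holds 2, and a match on the reverse strand reads GCNNNGTCA as printed. The 4 were chosen after their values were seen. The antioxidant core was in 23.5% of 17 NRF2 target promoters and 31.6% of 19 from an ATF4 amino acid response list. Of other letters searched, the aryl hydrocarbon receptor core, GCGTG, was in 44.7% of higher-gene promoters and 49.8% of tested ones. The SMAD element GGCGCC was in 28.9% of higher-gene and 31.4% of lower-gene promoters. The amino acid response element TGATGNAA was in 5.26% of higher-gene promoters and 1.73% of tested ones. Differences in these shares were not tested.
NQO1 promoter, chr16:69726511-69726810, minus strand: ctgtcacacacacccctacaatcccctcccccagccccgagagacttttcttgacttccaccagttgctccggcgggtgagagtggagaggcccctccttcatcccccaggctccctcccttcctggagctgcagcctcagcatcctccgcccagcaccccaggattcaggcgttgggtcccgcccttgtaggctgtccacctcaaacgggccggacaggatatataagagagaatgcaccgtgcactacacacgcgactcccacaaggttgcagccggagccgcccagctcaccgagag
GCLM promoter, chr1:93909381-93909680, minus strand: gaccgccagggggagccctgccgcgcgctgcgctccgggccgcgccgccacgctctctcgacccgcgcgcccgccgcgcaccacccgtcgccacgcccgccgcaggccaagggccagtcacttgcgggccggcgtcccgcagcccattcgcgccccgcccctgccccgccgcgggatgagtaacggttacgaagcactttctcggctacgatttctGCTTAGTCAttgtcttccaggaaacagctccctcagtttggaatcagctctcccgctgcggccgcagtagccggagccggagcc
TXNRD1 promoter, chr12:104215529-104215828, plus strand: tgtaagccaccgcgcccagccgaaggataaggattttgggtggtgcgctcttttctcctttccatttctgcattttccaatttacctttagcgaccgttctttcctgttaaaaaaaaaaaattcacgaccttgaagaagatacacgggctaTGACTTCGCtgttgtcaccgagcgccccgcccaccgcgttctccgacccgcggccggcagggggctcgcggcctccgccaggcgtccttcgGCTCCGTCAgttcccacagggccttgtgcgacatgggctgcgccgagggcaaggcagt
SLC3A2 promoter, chr11:62881449-62881748, plus strand: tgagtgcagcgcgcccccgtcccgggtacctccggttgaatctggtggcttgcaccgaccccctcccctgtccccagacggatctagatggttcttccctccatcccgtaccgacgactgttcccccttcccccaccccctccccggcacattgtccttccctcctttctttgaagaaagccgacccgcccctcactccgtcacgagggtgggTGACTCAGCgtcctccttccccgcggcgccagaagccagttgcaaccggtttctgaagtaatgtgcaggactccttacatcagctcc

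ID3 (chromosome 1, 23557918 to 23559794, minus strand) fell over the 4 formulas. In Samul-tang it went from 175.8, 184.7 and 160.7 CPM to 144.8, 140.8 and 150.9 CPM, and in Sibjeondaebo-tang from 179.5, 188.1 and 182.1 CPM to 143.4, 148.9 and 146.9 CPM. In Palmul-tang the values were 184.0, 127.4 and 166.4 CPM, then 123.1, 130.2 and 135.4 CPM. Medium libraries lay below all low ones in Samul-tang and Sibjeondaebo-tang, and in Palmul-tang the doubtful library, at 127.4 CPM, lay among the medium ones. In Sagunja-tang the sign was positive, from 168.9, 160.7 and 158.2 CPM to 170.7, 177.3 and 165.9 CPM, with overlap. The log2 difference over the 4 formulas was -0.20 ± 0.05 (adjusted p = 0.0361), and -0.23 with an adjusted p of 0.00546 without the doubtful library. Vehicle libraries measured 168.1, 178.4 and 171.4 CPM.

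Of 12 BMP and SMAD target genes 4 fell and 1 rose, with a median of -0.12, where 0.398% of all genes were lower. The genes that fell were ID3, ID2 (-0.20 ± 0.05), SMAD6, an inhibitory SMAD that feeds back on the pathway (-0.19 ± 0.04), and ATOH8, a helix-loop-helix factor (-0.19 ± 0.05). The gene that rose was GREM1 (0.22 ± 0.04), which encodes a secreted antagonist of BMPs. It averaged 17.2 CPM at low dose, 20.0 CPM at medium dose and 20.3 CPM in vehicle. ID1 averaged 240.4 CPM at the low dose and 223 CPM at the medium dose, a difference of -0.11 that missed the threshold (adjusted p = 0.146). Without the doubtful library 5 members fell. Without Sibjeondaebo-tang, Samul-tang or Palmul-tang as a whole 0 fell, at medians of -0.09, -0.14 and -0.12, and without Sagunja-tang 4 did. Of 13 measured BMP receptors and SMAD signal carriers, 0 rose and 0 fell in the same edgeR fit.

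Genes of lipid handling moved in both directions. ANGPTL4, a secreted inhibitor of lipoprotein lipase, ranged from 10.2 to 15.8 CPM at the low dose (median 12.3) and from 14.2 to 21.8 CPM at the medium dose (median 15.6), a rise of 0.42 ± 0.07 (adjusted p = 0.00108). PLIN2, which coats lipid droplets, rose by 0.19 ± 0.03. Of 10 measured PPAR target and lipid droplet genes these 2 rose and 0 fell, where 0.328% of all genes were higher and 0.398% lower. SREBF1, the gene of a transcription factor that drives fatty acid synthesis, fell by 0.19 on the log2 scale, from a median of 50.7 CPM to 44.1 CPM, and was the 1 of 8 LXR targets called. SCD, the desaturase that makes monounsaturated fatty acids, ranged from 257.6 to 326.1 CPM (median 288.8) at the low dose and from 239 to 267.4 CPM (median 260.4) at the medium dose (-0.17 ± 0.02, adjusted p = 0.000542). Vehicle averaged 21.4 CPM for ANGPTL4, above its means of 12.5 CPM at low and 16.8 CPM at medium dose. For PLIN2 it averaged 56.3 CPM, between means of 51.4 and 59.1 CPM, for SREBF1 44.7 CPM and for SCD 290.2 CPM.

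Several other lists had 1 to 3 members called, where 0.328% of all genes were higher and 0.398% lower. Of 6 measured targets of the aryl hydrocarbon receptor 3 rose, NQO1, CYP1B1 (0.08 ± 0.02), a cytochrome P450, and TIPARP (0.11 ± 0.03), which limits that receptor, and all 6 were positive. On the ATF4 amino acid response list, with 22 measured genes, 2 rose and 0 fell (3 rose without the doubtful library). These were SLC7A5 and SLC3A2 (0.10 and 0.12), the subunits of a transporter of large neutral amino acids, and SLC3A2 is also the partner chain of SLC7A11. LIF, a cytokine of the interleukin 6 family, was the 1 of 18 inflammatory genes that rose (3 without that library), and DUSP6, a phosphatase that turns off ERK, the 1 of 20 MAPK feedback and early genes (2 without that library). MKI67, a marker of proliferating cells, was the 1 of 25 genes of mitosis that fell (-0.12 ± 0.02).

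**Figure D3:**
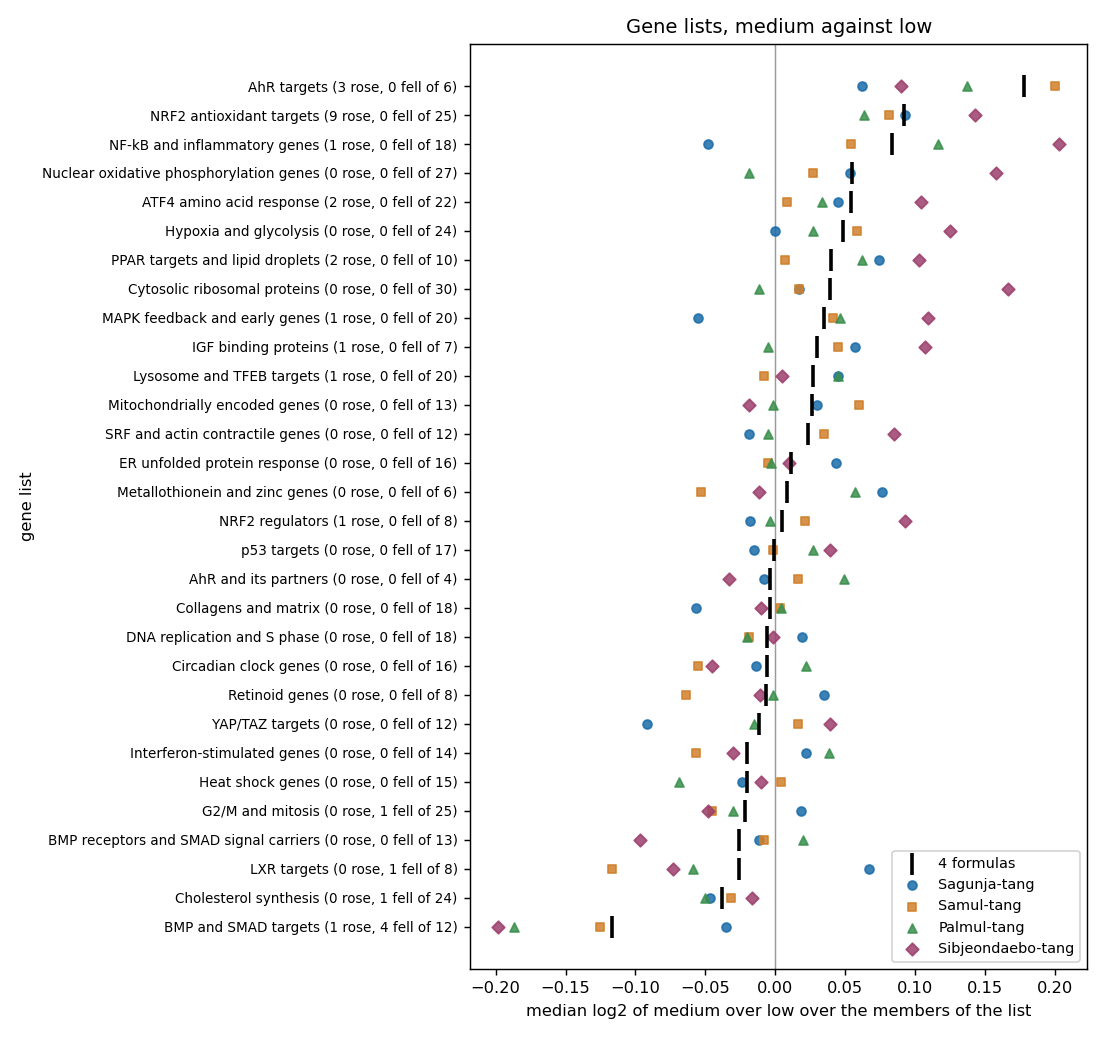
The horizontal axis gives the median log2 of medium over low over the measured members of each list named on the vertical axis, with the numbers that rose and fell over the 4 formulas. Black marks are the 4 formulas together and coloured symbols each formula. The median of the NRF2 targets is positive and that of the BMP and SMAD targets negative in each formula.

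IGFBP1, which binds insulin-like growth factors, ranged from 19.5 to 26.5 CPM at the low dose (median 21.1) and from 21.6 to 32.01 CPM at the medium dose (median 30.1), a rise of 0.38 ± 0.06. SCG5, a chaperone of a prohormone convertase, had 11 of 12 medium libraries above all low ones, at 5.09 to 6.84 CPM against 4.04 to 5.72 CPM (0.29 ± 0.05). SCG5 and GREM1 lie near each other on chromosome 15, with SCG5 ending at 32697098 and GREM1 starting at 32717974. THBD (thrombomodulin, 0.24), SERPINB2 (an inhibitor of urokinase, 0.23) and FBXO32 (atrogin-1, a ubiquitin ligase subunit, 0.19) also rose. In FBXO32 the highest low-dose library, at 136.1 CPM, was the doubtful one, and the next highest had 117.2 CPM.

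SLIT2, a secreted guidance ligand, fell from 23.9 to 26.2 CPM at the low dose to 19.7 to 24.5 CPM at the medium dose (-0.19 ± 0.03), with 11 of 12 medium libraries below all low ones. FILIP1L (-0.18), UCN2 (urocortin 2, -0.20), CYP27C1 (a retinoid desaturase, -0.22), IGSF10 (-0.16) and WDR27 (-0.17) fell too. RASA4B and the pseudogenes PKD1P1 and HERC2P2 have near-identical copies elsewhere in the genome, so their counts are uncertain, and they fell by 0.22, 0.23 and 0.20 on the log2 scale. SAMD11 and SELENOW fell over the 4 formulas (-0.29 and -0.27) with a small positive difference in Sagunja-tang. SAMD11 measured 87.2, 56.99 and 85.5 CPM in the Palmul-tang low libraries and 52.1, 52.2 and 65.0 CPM in the medium ones. SELENOW, a small selenoprotein, measured 71.2, 49.3 and 65.5 CPM, then 52.1, 48.0 and 49.3 CPM. In both genes the second low value, the doubtful library, lay among the medium ones.

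**Figure D4:**
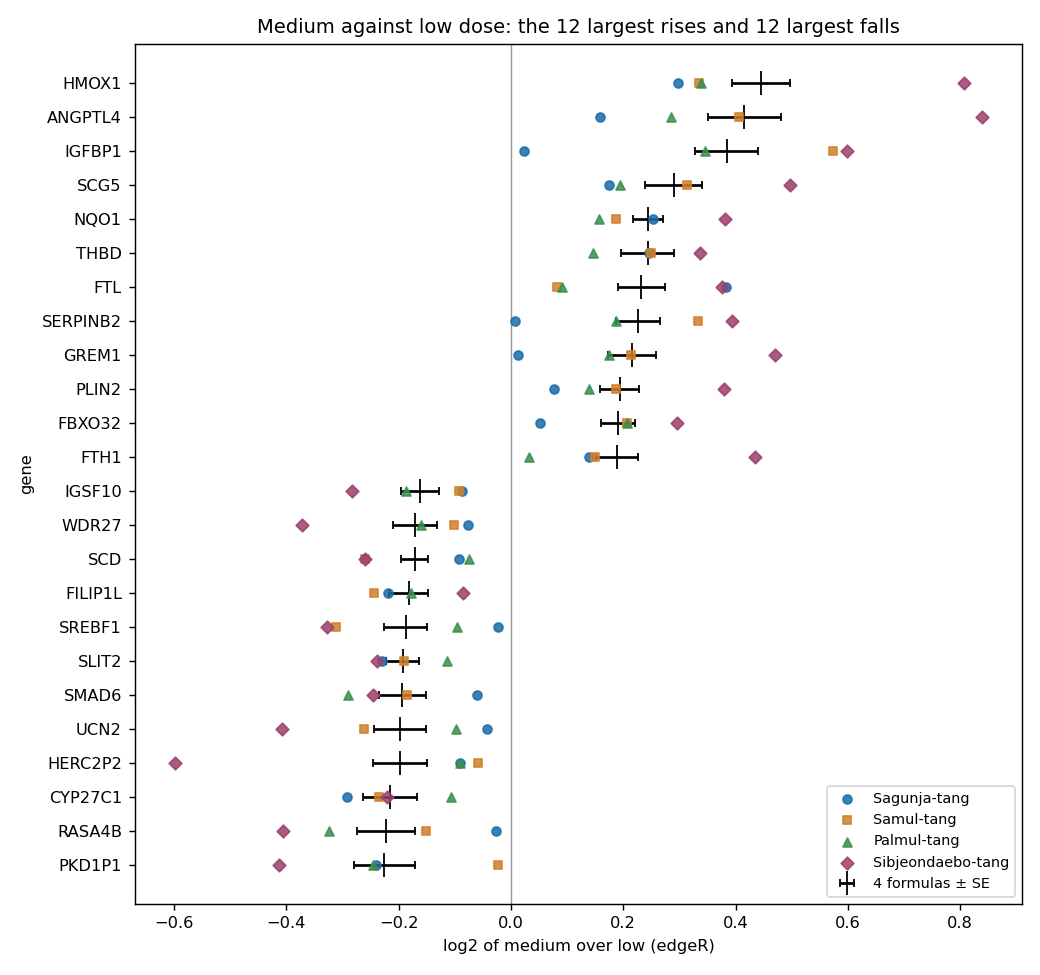
The horizontal axis gives the log2 of medium over low for the 12 largest rises and 12 largest falls with the same sign in all 4 formulas (vertical axis). Black marks are the fit of the 4 formulas with its standard error, and coloured symbols each formula. For HMOX1 the Sibjeondaebo-tang symbol lies at 0.81 and the others at 0.30 to 0.34, and for HERC2P2 it lies at -0.60.

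Within Sagunja-tang, 3 against 3 libraries, 7 genes were called (0.041%), 4 higher (0.0234%) and 3 lower (0.0176%). FTL rose by 0.38, from 1020, 948 and 863.1 CPM to 1176, 1311 and 1203 CPM, and NQO1 by 0.25. CD68, a lysosomal membrane glycoprotein, rose from 142.4, 138.1 and 145.8 CPM to 166, 168.1 and 171.6 CPM (0.25), and COX6A1, a subunit of cytochrome c oxidase, by 0.25. CD68 is also used as a myeloid marker. Of the other myeloid markers PTPRC and CSF1R averaged 10.2 and 2.94 CPM over the 24 libraries, ITGAM 0.116 CPM, and AIF1, CX3CR1, P2RY12 and TYROBP were under 0.1 CPM, and their part in the result was not tested. The genes that fell were KCNQ5, a potassium channel (25.0, 23.9 and 24.2 CPM to 20.0, 18.1 and 20.3 CPM), CEMIP, a hyaluronan-binding protein (-0.30), and THSD4, a matrix protein (-0.21). The rank correlation of the change with transcript length was -0.382. With trends in length and GC removed 5 genes were called, all among the 7, 3 higher and 2 lower. Without low replicate 2 edgeR called 0 genes, without medium replicate 2 or low replicate 3 it called 1, and without medium replicate 1 it called 12.

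In Samul-tang 15 genes were called (0.0878%), 7 higher (0.041%) and 8 lower (0.0468%). IGFBP1 rose most, from 20.2, 20.0 and 21.7 CPM to 32.01, 28.2 and 31.6 CPM (0.57, adjusted p = 0.000819). SERPINB2 rose by 0.33, LIF by 0.30 and ABCG2, an efflux transporter, from 37.7, 39.6 and 38.8 CPM to 45.9, 47.1 and 49.0 CPM (0.29). Lower at the medium dose were ZNF488 (-0.48), SELENOW (-0.48), GPR89A (-0.33), which has a near-identical copy, and SREBF1 (-0.31). SELENOW went from 62.5, 63.6 and 70.2 CPM to 48.9, 45.5 and 46.7 CPM. The rank correlation with transcript length was -0.073. Without medium replicate 1 or 3, 7 and 2 genes were called, and without low replicate 1, 2 or 3, 3, 8 and 5.

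In Palmul-tang edgeR called 0 genes and DESeq2 called 2. In edgeR 872 of 17087 genes had an unadjusted p below 0.05, near the share that this threshold passes with no difference at all. Without the library labelled low replicate 2 there were 14 calls, 7 higher and 7 lower. That library was picked out by its values, so this fit leans toward a difference and is a description. Among those that rose in that fit were HMOX1 (0.49, adjusted p = 4.99e-06), IGFBP1 (0.46), LIF (0.32), FBXO32 (0.31), NQO1 (0.24) and SQSTM1 (0.23). Among those that fell were ID3 (-0.43, adjusted p = 3.29e-05), ID2 (-0.43), ID1 (-0.31), SELENOW (-0.46) and SAMD11 (-0.60). With that library the differences of ID3, ID2 and ID1 in Palmul-tang were -0.30, -0.32 and -0.21. Without medium replicate 2, 3 genes were called.

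Sibjeondaebo-tang had 955 genes called (5.59%), 461 higher (2.7%) and 494 lower (2.89%). ANGPTL4 rose from 10.8, 11.1 and 11.6 CPM to 21.8, 19.1 and 19.2 CPM (0.84), HMOX1 by 0.81 and CXCL8, the chemokine interleukin 8, from 4.23, 4.45 and 4.52 CPM to 6.98, 7.07 and 6.58 CPM (0.65). In these 3 genes no medium library overlapped a low one. Of the 25 NRF2 targets 13 rose and 0 fell, and of the 12 BMP and SMAD targets 4 fell (ID2, ID3, ID4 and ATOH8) and GREM1 rose. Among 20 MAPK feedback and early genes 7 rose, including DUSP5 (0.31) and EGR1 (0.30), and among 24 hypoxia and glycolysis genes 10 rose, including NDRG1 (0.31), BNIP3 (0.20), PGK1 (0.16) and LDHA (0.14). Of 18 inflammatory genes 4 rose, CXCL8, LIF, PTGS2 and SOD2. CXCL8, LIF and PTGS2 were highest in vehicle, at means of 10.4, 61.6 and 93.7 CPM.

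The change in Sibjeondaebo-tang had a rank correlation of -0.447 with transcript length, and the median transcript was 1984 bases for the higher and 5392 bases for the lower genes. By library, the deviation from the mean of all 24 libraries had a correlation with length of -0.327 to -0.208 in the 3 medium libraries of Sibjeondaebo-tang. In its 3 low libraries the correlation was 0.2 to 0.304. Of 30 cytosolic ribosomal protein genes, which have short transcripts, 10 rose with a median of 0.17, and of 27 nuclear genes of oxidative phosphorylation 13 rose with a median of 0.16. With trends in length and GC removed, 1102 genes were called, 801 higher and 301 lower, and 713 of the 955 were among them. In that fit 15 NRF2 targets, 10 hypoxia and glycolysis genes, 8 MAPK genes and 12 ribosomal protein genes rose, and 4 BMP and SMAD targets fell. Without medium replicate 3, 355 genes were called, without low replicate 3, 424, without medium replicate 1, 549, and without low replicate 2, 596.

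The response itself differed between formulas for 60 genes (0.351%; edgeR test with 3 degrees of freedom), 11 of which were among the 124. WSB1, PNISR, HERC2P2 and GOLGA8B were lower at the medium dose of Sibjeondaebo-tang and differed by less than 0.1 (log2) in the other formulas. WSB1, a ubiquitin ligase adaptor, measured 103.4, 105.5 and 107.4 CPM at the low dose and 82.0, 83.2 and 80.5 CPM at the medium dose of Sibjeondaebo-tang. PNISR, a nuclear speckle protein, went from 100.4, 106.7 and 107.9 CPM to 75.6, 78.7 and 78.5 CPM there (-0.44, against -0.04, -0.03 and -0.02 in the others). Vehicle libraries were low for GOLGA8B, at 47.1, 49.5 and 47.7 CPM, near the Sibjeondaebo-tang medium libraries at 50.1, 50.9 and 49.4 CPM. GOLGA8A and GOLGA8B are near-identical copies, so how reads were divided between them is uncertain.

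HAS2, a hyaluronan synthase, and LIF had a negative difference in Sagunja-tang and positive ones in the rest. HAS2 went from 65.9, 62.9 and 66.5 CPM to 58.5, 59.1 and 58.4 CPM in Sagunja-tang and from 55.0, 54.8 and 57.6 CPM to 69.9, 66.5 and 68.6 CPM in Sibjeondaebo-tang, without overlap in either. Vehicle averaged 94.1 CPM for HAS2. LIF had a log2 difference of -0.15 in Sagunja-tang and of 0.30, 0.27 and 0.43 in Samul-tang, Palmul-tang and Sibjeondaebo-tang. IGFBP1 showed 0.02 in Sagunja-tang against 0.57, 0.35 and 0.60 in the other 3 (adjusted p for the difference = 0.0261), and HMOX1 showed 0.30, 0.33, 0.34 and 0.81 in the same order (adjusted p = 0.0263).

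For ID3 the differences of 0.07, -0.26, -0.30 and -0.33 did not pass the test between formulas (adjusted p = 0.145), but did without the doubtful library (adjusted p = 0.000606). ID2 had an adjusted p of 0.0911 and, without that library, of 0.00598. Without it 52 genes were called, 45 of them among the 60. Without 1 library at a time the count ranged from 15 (without Sibjeondaebo-tang low replicate 2) to 69 (without medium replicate 2 of Sagunja-tang or of Samul-tang). It was under 40 without any 1 of Sagunja-tang medium replicate 1 or 3 or low replicate 2 or 3, Samul-tang low replicate 2, Palmul-tang medium replicate 1, or Sibjeondaebo-tang medium replicate 1 or 3 or low replicate 3.

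The step from 20 to 100 µg/mL was compared with that from 100 to 500 µg/mL, the same ratio of doses, in the 36 libraries of the 3 doses. The medium dose enters both steps. The upper step had 4367 genes called (25.6%), 2253 higher (13.2%) and 2114 lower (12.4%). Between the steps 918 genes (5.37%) differed. The signed difference, upper minus lower step, was positive for 423 (2.48%) and negative for 495 (2.9%), so a larger fall in the upper step counts as negative. HMOX1 averaged 68.1 CPM at low, 94.0 CPM at medium and 313 CPM at high dose. Its log2 difference was 0.45 in the lower and 1.59 in the upper step, and the steps differed by 1.15 ± 0.06 (adjusted p = 1.9e-15). SLC7A11 averaged 116, 129 and 231 CPM, and its steps differed by 0.69 ± 0.06. ID3 averaged 169.7, 148 and 97.0 CPM, and its steps differed by -0.55 ± 0.06. All 3 genes thus changed more per step above 100 µg/mL than below it.

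As groups, all 25 NRF2 targets rose in the upper step, with a median of 0.39, and the upper step was greater for 24 of them. Of 12 BMP and SMAD targets 10 fell in the upper step with a median of -0.47. AKR1C1 and AKR1C2, aldo-keto reductases whose near-identical sequences can share reads, had differences of 0.13 and 0.14 in the lower step (adjusted p = 0.0635 and 0.193) and of 1.01 and 0.78 in the upper one. NUPR1, a stress-response chromatin protein, and MT1E, a metallothionein with close relatives that can share reads, had -0.06 and 0.03 in the lower step, both short of the threshold, and 0.56 and -0.68 in the upper step. ANKRD1, a target of YAP and TAZ, CYP24A1, the enzyme that inactivates vitamin D, and CEMIP had -0.20, -0.06 and -0.03 in the lower step. In the upper step they had larger falls, of -0.79, -0.61 and -0.54 (upper minus lower -0.59, -0.55 and -0.51).

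For other genes that changed in the lower step no difference between the steps was called. For SCG5 the upper minus the lower step was -0.02 ± 0.07, for ABCG2 0.003 ± 0.04 and for SREBF1 -0.08 ± 0.05. SERPINB2 had a smaller upper step of 0.06 against 0.23 in the lower one (upper minus lower -0.17, adjusted p = 0.0385). HAS2 changed sign, with 0.08 in the lower and -0.07 in the upper step (upper minus lower -0.15, adjusted p = 0.00179). Over the 4 formulas HAS2 was not called between medium and low dose in the 24 libraries (adjusted p = 0.303, edgeR). Of the 12 YAP and TAZ targets 0 were called in the lower step by edgeR, while all 12 fell in the upper one. Hypoxia and glycolysis genes had a median of 0.05 in the lower step (0 of 24 called) and of -0.08 in the upper step (4 rose and 14 fell). Without the doubtful library 832 genes differed between the steps, 818 of them among the 918. Without Palmul-tang as a whole 424 did, without Sagunja-tang 591 and without Sibjeondaebo-tang 606.

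**Figure D5:**
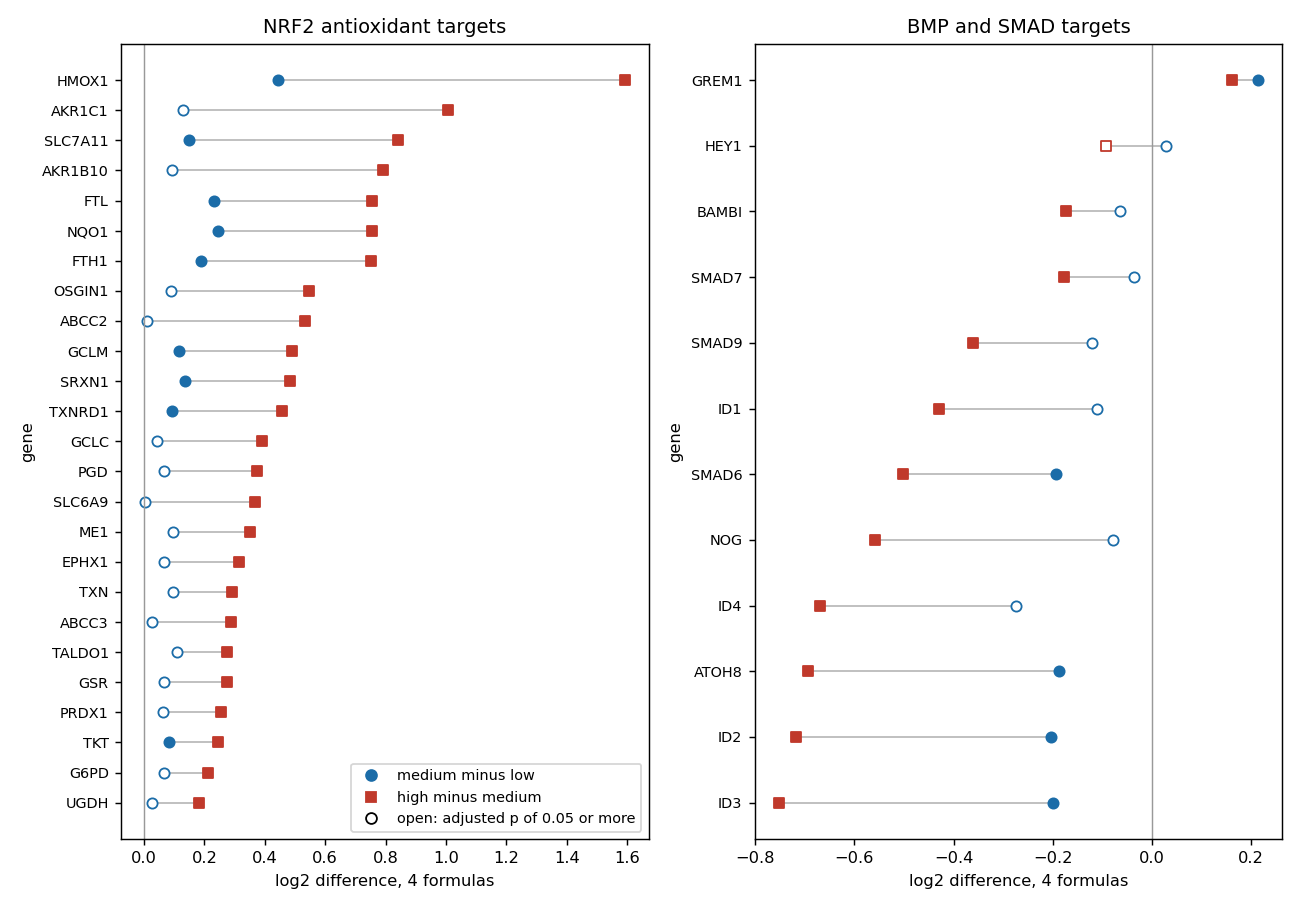
The left panel shows the 25 NRF2 targets and the right panel the 12 BMP and SMAD targets (vertical axes), with the log2 difference over the 4 formulas on the horizontal axes. Circles are medium minus low and squares high minus medium, and open symbols did not pass the threshold. All 25 NRF2 squares are filled and lie right of their circles, with HMOX1 farthest at 1.59.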

How the data were processed

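SW1783 libraries were made with a directional mRNA kit and sequenced as paired ends on an MGI instrument, per the labels' protocols. The deposited table holds expected counts per gene, which the authors made with STAR 2.7.3a and RSEM 1.3.3, after Trim Galore 0.6.5 and FastQC 0.11.9, on build hg38/GRCh38, per the submitters' processing notes. The annotation release and the strand setting are not given in the sources used here. Of 60675 genes, 57055 matched a symbol and position in GENCODE (GRCh38), and 219 columns of no listed sample were not used. Expected counts are estimates, so genes with near-identical copies are uncertain. 90.8% of the values were whole to within 1e-09, and all were rounded.

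Groups were taken from the treatment labels. Genes kept by filterByExpr (17087) were tested with edgeR 4.0.16 in R 4.3.3 (TMM scaling, quasi-likelihood F test, Benjamini-Hochberg adjusted p below 0.05). One fit used formula plus dose in 24 libraries (19 residual degrees of freedom), one used 8 means (16), for each formula and for the difference between formulas, and one used 12 means in 36 libraries (24), for the dose steps. Printed CPM come from 57 libraries scaled together. Alternatives were DESeq2 1.42.0, other scaling and filters, replicate blocks, and removal of length and GC trends by spline fits for each library. Other sets of libraries and leaving out libraries or formulas were also tried. Removing replicate 1, 2 or 3 of every group, leaving Sibjeondaebo-tang out with the trends removed, leaving 2 Astragali Radix libraries out of the 57, and the list counts without a formula or the doubtful library were added after seeing the data.

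One gene that the rule names is not reported here. The comparison and the gene lists were chosen with earlier results of these data known. Named were HMOX1, SLC7A11 and ID3, the 12 largest rises and 12 largest falls with a mean of at least 5 CPM and the same sign in 4 formulas, up to 4 called members per list, the 6 genes of smallest adjusted p for the difference between formulas, the largest changes within each formula and the largest differences between steps. NFE2L2, KEAP1, ID1, PMF1, PDZRN3, and the members of lists named only for Sibjeondaebo-tang or for Palmul-tang without 1 library, were named after their values were seen. Library totals of 19793387 to 33257876 set the counting precision. On simulated data, 39 of 50 genes changed 1.1-fold and 49 of 50 changed 1.2-fold were recovered in the fit of 4 formulas (17087 genes, 16 of 16887 unchanged genes called). For Sibjeondaebo-tang alone these were 6 and 40 of 50.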

Additional observations from a re-analysis of the deposited data

Results flagged for a closer look

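The medium minus low response differed between formulas for 14 of the named genes, by the edgeR test of that difference over all genes. Outlying values of single genes within a group were not tested for, since groups held 3 or 12 libraries. The smallest adjusted p, 0.000324, was shared by HAS2, LIF, PNISR and WSB1. For HAS2 the log2 difference was -0.15 in Sagunja-tang, 0.12 in Samul-tang, 0.07 in Palmul-tang and 0.29 in Sibjeondaebo-tang. GOLGA8B and HERC2P2 followed, both at 0.000449, and GOLGA8A at 0.0164, with differences of -0.57, -0.60 and -0.57 in Sibjeondaebo-tang. CD68 (0.00621) and CEMIP (0.0349) differed by 0.25 and -0.30 in Sagunja-tang and by -0.10 to 0.09 elsewhere. IGFBP1 had an adjusted p of 0.0261, HMOX1 of 0.0263 and CXCL8 of 0.0438, and for CXCL8 the differences in the same order were -0.22, 0.49, 0.29 and 0.65. FTH1 (0.0367) and GPR89A (0.04) lost the call without the library labelled Palmul-tang low replicate 2, with adjusted p of 0.0565 and 0.0675, and the other 12 kept it.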

How the results depend on the processing

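None of the values recomputed changed sign past the threshold. The 124 genes of the 4 formulas became 267 with DESeq2, 501 with no filter on low counts and 327 with 1 mean per formula and dose. They became 25 in a fit of 57 libraries and 285 in that fit less Astragali Radix low replicates 1 and 2. Without Palmul-tang there were 77, without Sibjeondaebo-tang 3, and 10 with length and GC trends removed as well. Within Sagunja-tang and Samul-tang there were 2, and within Palmul-tang and Sibjeondaebo-tang 67. Leaving out 1 library, or 1 replicate of every group, gave 2 to 172 (2, 26 and 2 without replicate 1, 2 or 3 of every group). The cause was not tested for these, beyond the smaller number of libraries where some were left out.

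Sagunja-tang's 7 genes became 35 with DESeq2, 145 with no filter and 0 with 57 libraries (edgeR), and 0 to 12 without 1 library. Samul-tang's 15 became 27, 146 and 1, and 2 to 13. Palmul-tang's 0 became 2, 136 and 0, 1 with length and GC trends removed, and 0 to 14. Sibjeondaebo-tang's 955 became 41 with 57 libraries and 355 to 767 without 1 library. In the 57 libraries less Astragali Radix low replicates 1 and 2 the counts were 10 for Sagunja-tang and 13 for Samul-tang. They were 1 for Palmul-tang and 875 for Sibjeondaebo-tang in that fit. The 60 genes differing between formulas became 205 with DESeq2, 743 with no filter, 104 at a mean of at least 5 CPM, and 15 to 69. The 918 differing between steps became 591, 424 and 606 without Sagunja-tang, Palmul-tang or Sibjeondaebo-tang, and 758 to 962 without 1 library. The cause was not tested.

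The labels do not say what a shared replicate number stands for, so same-numbered libraries were not treated as paired. Between groups, their deviations had a median r of 0.046 (range -0.147 to 0.268, 84 pairs), against -0.03 over 168 pairs of other numbers. As a hint of pairing from the data, 19 of 24 libraries were closest on average to their own of the 3 replicate numbers. With the replicate block the counts were 131 for the 4 formulas, 6 for Sagunja-tang, 18 for Samul-tang, 0 for Palmul-tang, 1132 for Sibjeondaebo-tang, 121 for the difference between formulas and 1002 for the steps. With the replicate block within label code they were 102, 6, 19, 0, 1051, 82 and 1018. Of the recomputed log2 differences of named genes over the 4 formulas, 1194 kept their direction and call and 434 kept their direction only. At 3 against 3 libraries, 1.1-fold changes were mostly out of reach.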
